A study of Mus musculus with 2 samples.

Results

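The genes described here are 45 genes of neutrophils, macrophages and dendritic cells, the myeloid white cells that take up and kill microbes, clear dying cells and present antigen. They were picked by symbol from a list, not by measured values, although results of these data were known when the list was made. Of the 45 genes, 42 had at least 1 probe set named for them alone, with 59 probe sets in all out of 45037 on the array. The array named 18193 genes in this way. Retnlg, Cebpe and Clec9a had no such probe set, so no intensity is given for them.

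RNA came from cells sorted out of the spleens of C57BL/6 mice with hepatocellular carcinoma, a cancer of liver cells, and was hybridised to 2 Affymetrix arrays. The first array held cells positive for Ter119, a surface antigen of red cells and late erythroblasts, and negative for CD45, the surface phosphatase of white cells. The second held CD45-positive cells of the same animals, which served as control. Whether Ter119 entered that second gate, how the tumours arose, the animals' age and number, and any pooling are not given in the sources used here. Every animal carried a tumour, so no comparison with healthy spleen is possible. With 1 array a group there was no replicate, no test could be made, and every difference below is that between these 2 arrays alone. Since the arrays hold RNA of mixed cells, fewer cells of a type and less RNA per cell cannot be told apart.

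Neutrophils mature from promyelocytes, which fill primary granules with serine proteases and myeloperoxidase, to later stages that make the antimicrobial proteins of secondary and tertiary granules. The C/EBP factors and PU.1 drive this programme. In the spleen, red pulp macrophages remove aged red cells and recycle their iron, and macrophages at the centre of erythroblastic islands hold maturing erythroblasts through adhesion proteins such as Vcam1. Dendritic cells take up antigen and present it to T cells.

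Genes are called measured in an array where their intensity exceeded 127.3. This detection level was set from 80 probe sets of smell and pheromone receptor genes (olfactory and vomeronasal receptors), taken as silent in spleen, and is their 95th percentile in CD45-negative cells, where it was higher than in CD45-positive cells (73.5). Dimmer values were raised to the level, so that a difference with 1 such side is a bound, written "at least". Intensities are on the deposited linear scale, and each gene is represented by its probe set with the highest mean log2 value. Intensities of different genes come from different probes and are not compared with each other. As an alternative, the level was set at the 99th percentile of these receptor probe sets over both arrays pooled, 160.4.

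The sorted cells matched their labels by their defining genes. Ptprc, which encodes CD45, stood at 422.7 in CD45-negative cells and 32147 in CD45-positive cells, a remainder of 1.31%. All 9 erythroid markers with a probe set (Slc4a1, Epb42, Alas2, Klf1, Gata1, Ermap, Rhd, Hemgn and Tfrc) were at least 4-fold higher in the CD45-negative array, as were 6 of 7 platelet and megakaryocyte genes (Pf4, Ppbp, Itga2b, Gp9, Gp1bb and Tubb1). The other, Gp6, stood at 289.9 against 12.1, at least 2.28-fold higher. The gene of the glycophorin that goes with the Ter119 antigen had no probe set named for it alone. The 9 erythroid markers were also above the level in the CD45-positive array, with a summed intensity of 12440 there against 460750. The median difference over all 10890 measured genes was -0.33 (log2, CD45-negative minus CD45-positive), and -0.04 after quantile normalization.

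Most myeloid genes were lower in the CD45-negative array, and none was 4-fold higher. Of the 42 genes with a probe set, 40 were measured in at least 1 array, and 26 of these were at least 4-fold lower. The share of all 10890 measured genes that was at least 4-fold lower was 16.7%, and 8.73% were at least 4-fold higher. The 26 genes include 17 measured in both arrays and 9 for which only a bound holds, and a gene that entered through the CD45-positive array alone could only be lower. Of the 14 in neither class, 9 also have only a bound, so that their true difference may be larger than the one given. A 4-fold lower call needs an intensity of at least 509.1 in the CD45-positive array, 4 times the level. Of the 39 genes above the level there, 30 reached that intensity, and 26 of these 30 were the genes called; the other 9 could not be called whatever their CD45-negative value. Over the 42 genes with no detection level applied, 39 were dimmer and 3 brighter in the CD45-negative array, with a median difference of -3.55, against 0.02 over all 18193 genes.

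**Figure D1:**
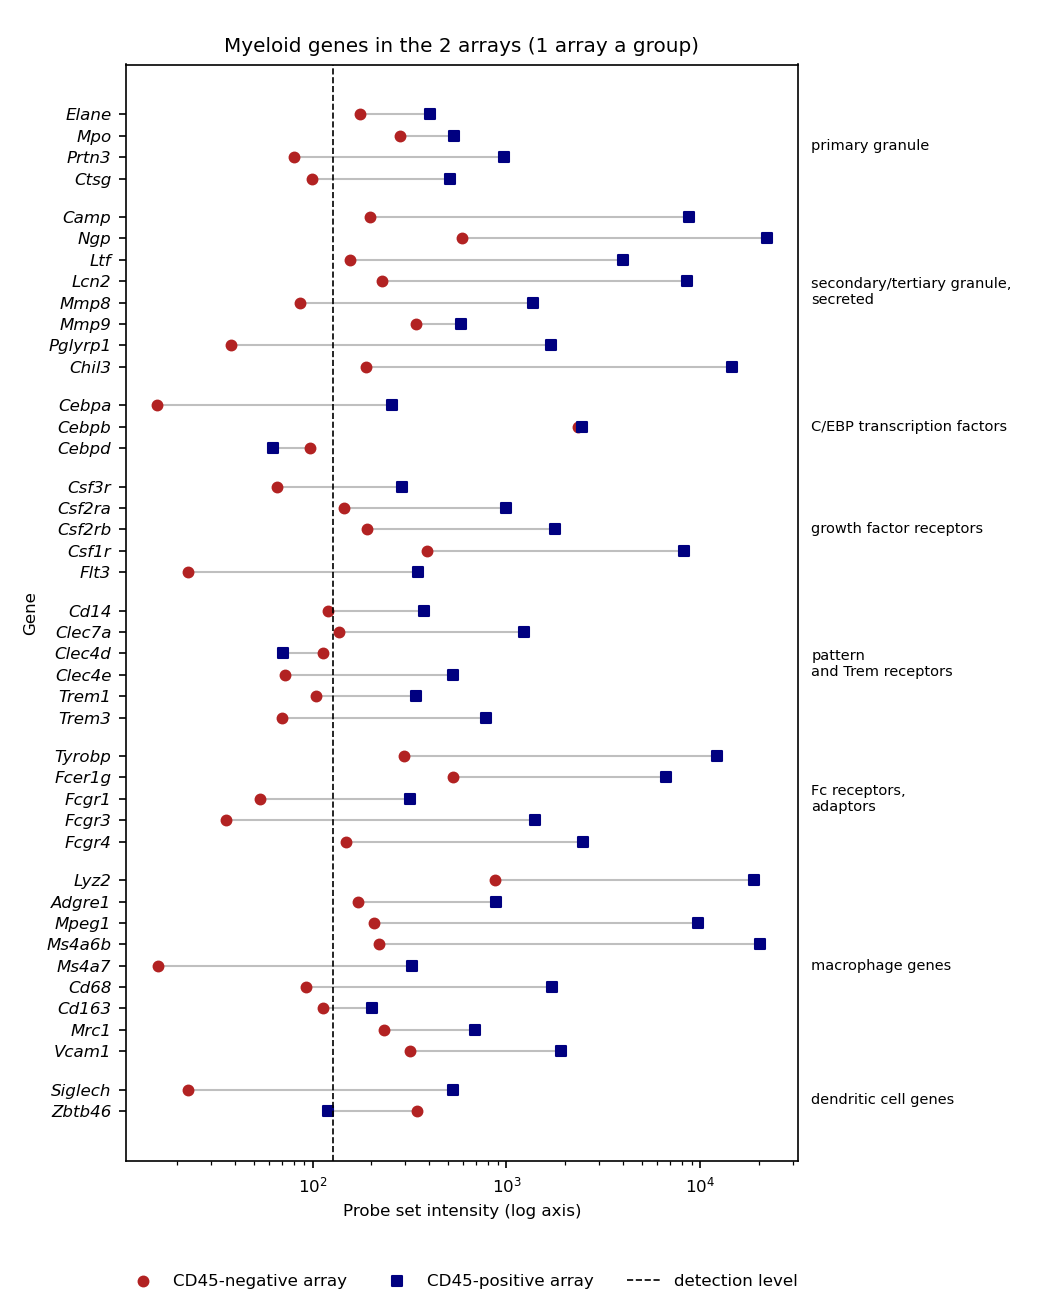
Intensity (log axis) of the 42 myeloid genes with a probe set in the CD45-negative array (red circles) and the CD45-positive array (blue squares), 1 array each, grouped by role, with the detection level of 127.3 as a dashed line. The pairs of most granule and macrophage genes lie far apart, while both points of Cebpb fall together near 2333 and 2438.

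**Figure D2:**
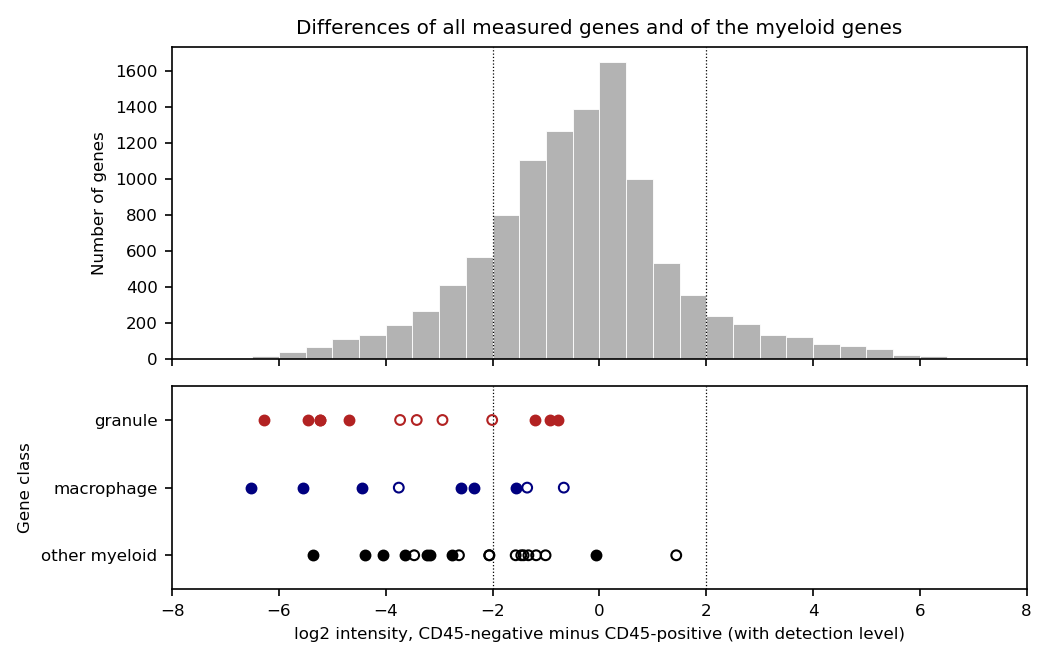
Upper panel: number of genes by difference (log2, CD45-negative minus CD45-positive, bins of 0.5) for all 10890 measured genes. Lower panel: the 12 granule, 9 macrophage and 19 other measured myeloid genes, with open circles for bounds and dotted lines at -2 and 2 (4-fold); all myeloid genes but 1, Zbtb46, lie below 0.

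The genes of later neutrophil granules showed the widest gaps among the granule genes. Chil3, a secreted chitinase-like protein, had an intensity of 187.6 in CD45-negative cells and 14539 in CD45-positive cells. Camp, the cathelicidin antimicrobial peptide, had 198.1 and 8706, and Ngp, a related neutrophil granule protein, had 588.7 and 22163. In all 3 the CD45-negative array was the low one, 77.5-fold for Chil3, 43.9-fold for Camp and 37.6-fold for Ngp. The siderophore-binding protein Lcn2 stood at 227.6 against 8522, 37.4-fold lower, and lactoferrin, Ltf, which binds iron, at 155.7 against 4004, 25.7-fold lower. These 5 genes ranked between 7 (Chil3) and 138 (Ltf) from the lowest among the 7611 genes measured in both arrays. Mmp8, the neutrophil collagenase, and Pglyrp1, a peptidoglycan-binding protein, were under the level in the CD45-negative array (86.5 and 38.1) and stood at 1363 and 1691 in the other, at least 10.7-fold and at least 13.3-fold lower.

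Mmp9, a gelatinase of tertiary granules that other cells also make, differed from these genes. Its stand-in probe set gave 341.7 in CD45-negative cells and 583.8 in CD45-positive cells, 1.71-fold lower. Its second probe set gave 28.6 and 422.5, at least 3.32-fold lower. The difference was -0.06 after quantile normalization and -1.96 with the mean of its probe sets, so the size of the Mmp9 difference depends on the scaling and on the probe set.

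The primary granule genes gave smaller gaps or bounds only. Elane, the neutrophil elastase, had 175.3 in CD45-negative cells and 405.1 in CD45-positive cells, 2.31-fold lower. Mpo, myeloperoxidase, had 281.9 and 534.5, 1.90-fold lower. Neither reached 4-fold, which Elane could not do with the level applied, since 4 times the level exceeds its CD45-positive intensity. After quantile normalization the differences were -0.47 for Elane and -0.18 for Mpo, against -1.21 and -0.92 as deposited. Prtn3, proteinase 3, stood at 80.5, under the level, against 975.6, at least 7.67-fold lower. Ctsg, cathepsin G, stood at 99.3, also under the level, against 511.8, at least 4.02-fold lower, just inside the threshold. Its bound was -1.40 after quantile normalization, -1.96 after median centring and -1.67 with the level at the 99th percentile, each short of 4-fold. These weaker bounds do not show that the difference itself was under 4-fold. The median difference was -1.61 over the 4 primary granule genes and -4.96 over the 8 later granule genes, and whether these groups differ was not tested.

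The starts of 5 granule genes are shown as examples of both kinds, 3 later and 2 primary, and were chosen after their values and motifs were seen. Chil3 is the granule gene with the widest gap. For each, the 250 bases before the start are printed from RefSeq (GRCm38.p6), 5′ to 3′ on the gene's own strand. Capitals mark 2 motifs, searched on both strands: TTGCNNAA, a form of the C/EBP site, and GAGGAA, a form of the PU.1 site. On the other strand they read TTNNGCAA and TTCCTC. Other forms of either site were not searched. The genes are Ltf (chr9:111019042-111019291, plus strand), Chil3 (chr3:106167565-106167814, minus strand), Lcn2 (chr2:32387740-32387989, minus strand), Elane (chr10:79886062-79886311, plus strand) and Prtn3 (chr10:79879417-79879666, plus strand), of which the last pair are neighbours on chromosome 10.
Ltf: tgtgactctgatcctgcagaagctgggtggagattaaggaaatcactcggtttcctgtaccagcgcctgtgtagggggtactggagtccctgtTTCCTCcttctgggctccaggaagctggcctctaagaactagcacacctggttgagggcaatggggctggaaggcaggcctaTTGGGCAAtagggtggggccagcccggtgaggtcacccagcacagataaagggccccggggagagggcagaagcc
Chil3: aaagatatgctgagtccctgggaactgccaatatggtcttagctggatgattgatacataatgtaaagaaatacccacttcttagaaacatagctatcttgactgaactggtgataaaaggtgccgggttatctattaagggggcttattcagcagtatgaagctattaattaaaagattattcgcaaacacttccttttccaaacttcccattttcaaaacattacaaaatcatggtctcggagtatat
Lcn2: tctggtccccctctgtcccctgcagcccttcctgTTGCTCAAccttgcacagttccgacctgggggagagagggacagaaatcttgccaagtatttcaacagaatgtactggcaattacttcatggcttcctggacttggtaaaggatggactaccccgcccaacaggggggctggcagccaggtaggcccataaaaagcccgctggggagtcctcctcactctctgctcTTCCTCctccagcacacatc
Elane: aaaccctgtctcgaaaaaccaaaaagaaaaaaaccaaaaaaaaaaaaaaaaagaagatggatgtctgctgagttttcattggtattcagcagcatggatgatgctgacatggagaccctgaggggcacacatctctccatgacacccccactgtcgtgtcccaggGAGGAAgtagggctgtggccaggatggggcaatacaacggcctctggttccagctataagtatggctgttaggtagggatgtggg
Prtn3: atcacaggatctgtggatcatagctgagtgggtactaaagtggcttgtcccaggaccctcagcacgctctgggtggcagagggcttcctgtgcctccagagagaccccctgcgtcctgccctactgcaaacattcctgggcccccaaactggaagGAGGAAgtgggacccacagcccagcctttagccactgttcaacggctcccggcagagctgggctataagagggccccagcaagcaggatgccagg

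Ltf and Lcn2 held both motifs, with the C/EBP form beginning 75 bases before the start in Ltf and 216 bases before it in Lcn2. Elane and Prtn3 held GAGGAA beginning 85 and 95 bases before the start and no TTGCNNAA. Chil3 and Camp, the later granule genes with the widest gaps, held neither motif, and Pglyrp1 held GAGGAA alone. Among the 8 windows of later granule genes, which include Retnlg and not Mmp9, 5 held TTGCNNAA (62.5%) and 4 held GAGGAA (50.0%). Among the 4 windows of primary granule genes, 0 held TTGCNNAA and 4 held GAGGAA. Among the 8 windows of 7 macrophage genes, 1 held TTGCNNAA (12.5%) and 2 held GAGGAA (25.0%). Of all 32841 windows of this length, 9.57% held TTGCNNAA and 23.3% held GAGGAA. No test was made on these counts, and a match or its absence describes the letters of this window and not binding.

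Of the transcription factors, Cebpb stood apart. Cebpb, a C/EBP factor of many tissues that responds to inflammatory signals, had 2333 in CD45-negative cells and 2438 in CD45-positive cells, and its second probe set had 837.3 and 853.5. The differences were -0.06 and -0.03, and the intensities in the CD45-negative array were 95.7% and 98.1% of those in the other array. Cebpa, which is needed for the granulocyte and monocyte lineage, stood at 15.7 against 256, at least 2.01-fold lower. Cebpd was under the level in both arrays by its stand-in probe set (96.7 and 62.4), while its other probe set gave 5.7 and 333.8, at least 2.62-fold lower. No direction is given for Cebpd, because the probe set that stands for it was not measured in either array.

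The receptors for myeloid growth factors were lower in the CD45-negative array. Csf1r, the receptor of the macrophage growth factor, had 391.6 in CD45-negative cells and 8196 in CD45-positive cells, 20.9-fold lower. Its other probe sets gave 11.6-fold and 5.59-fold, and the difference with the mean of the 3 was -3.47 against -4.39 for the stand-in. Csf2rb, the common beta subunit for the cytokine GM-CSF and related interleukins, had 190.6 and 1789, 9.39-fold lower (-3.23). Csf2ra, the GM-CSF binding subunit, had 145.5 and 988.7, 6.80-fold lower, and -1.76 with the mean of probe sets, short of 4-fold. Csf3r, the receptor of the granulocyte growth factor, stood at 65.7 against 289.3 and Flt3, a receptor of early progenitors and dendritic cells, at 22.9 against 351, at least 2.27-fold and at least 2.76-fold lower. The CD45-negative values of Csf3r and Flt3 were under the level, so these bounds do not show whether either gene reached 4-fold. The beta subunit also serves mast cells and basophils. Of 6 mast cell and basophil markers with a probe set, 2 were measured, both in the CD45-positive array alone (Mcpt8 at 208.8 and Cpa3 at 187.9), and the summed intensity was 161 in the CD45-negative and 680.4 in the CD45-positive array. Their part in the Csf2rb result was not tested.

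The receptors for microbial products and the Trem receptors were dim in the CD45-negative array. Clec7a (dectin-1, a receptor for fungal glucans) had 137.6 in CD45-negative cells and 1235 in CD45-positive cells, 8.98-fold lower. Trem3, an activating Trem receptor of myeloid cells, stood at 69.3 against 787.8, at least 6.19-fold lower. Clec4e (Mincle, which binds mycobacterial glycolipid) stood at 72.3 against 532, at least 4.18-fold lower. The bound for Clec4e was -1.46 after quantile normalization, -1.35 with the mean of its probe sets and -1.73 with the level at the 99th percentile. Each is short of 4-fold, but these weaker bounds do not show that the difference itself was. Cd14, the co-receptor for lipopolysaccharide, stood at 120 against 377.3, and Trem1, which amplifies inflammation, at 104.6 against 340.4. These are at least 2.96-fold and at least 2.67-fold lower. The second probe set of Trem1 was under the level in both arrays (3.7 and 41.5). Clec4d, a lectin receptor paired with Clec4e, was under the level in both arrays (113 and 70.8). Clec7a was thus the single gene of this group that was measured in the CD45-negative array.

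Fc receptors, which bind the constant part of antibodies, and the adaptors that signal for them were lower. Tyrobp (DAP12), the adaptor of Trem and other receptors, had 296.7 in CD45-negative cells and 12228 in CD45-positive cells, 41.2-fold lower. Fcer1g, the common gamma chain of Fc receptors, had 531.3 and 6660, 12.5-fold lower. Fcgr4, an activating receptor for immunoglobulin G, had 149.6 and 2483, 16.6-fold lower, and Fcgr3, another activating receptor, stood at 36, under the level, against 1408, at least 11.1-fold lower. The high-affinity receptor gene Fcgr1 stood at 53.8 against 319.9 by its stand-in probe set, at least 2.51-fold lower, and at 11.8 against 802.6 by the other, at least 6.31-fold lower. Both its probe sets were under the level in the CD45-negative array and above it in the CD45-positive array. These adaptors also serve natural killer cells. All 8 T and natural killer cell markers with a probe set were at least 4-fold lower, with a summed intensity of 744.7 against 43165, and their part in the adaptor values was not tested.

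Macrophage genes ranged from very wide to small gaps. Ms4a6b, a membrane protein of macrophages that T cells also make, had 221.3 in CD45-negative cells and 20297 in CD45-positive cells, 91.7-fold lower, and its second probe set gave at least 31.1-fold. Mpeg1, a pore-forming protein of phagocytes, had 207.8 and 9769, 47.0-fold lower. Lyz2, the lysozyme of macrophages and neutrophils, had 869 and 18919, 21.8-fold lower. All 3 remained above the level in the CD45-negative array. The part of B cells and other white cells in their values was not tested. Cd68, a protein of phagocyte lysosomes, stood at 92.8, under the level, against 1720, at least 13.5-fold lower.

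Other macrophage genes, among them those of resident spleen macrophages, had smaller gaps or bounds only. Vcam1, the adhesion protein of red pulp and island macrophages and of stroma, had 318.5 in CD45-negative cells and 1921 in CD45-positive cells, 6.03-fold lower. Its other probe sets gave 275.7 against 1121, 4.07-fold lower, and 75.8 against 360.6, at least 2.83-fold lower. Adgre1 (F4/80, the classical surface marker of mouse macrophages) had 171.8 and 879.8, 5.12-fold lower, and its difference was -1.75 after quantile normalization, short of 4-fold. Mrc1, the mannose receptor, had 232.6 and 689.6, 2.96-fold lower (-0.87 after quantile normalization, against -1.57). The haemoglobin scavenger receptor Cd163 stood at 113.6, under the level, against 202.1, at least 1.59-fold lower, and Ms4a7, a membrane protein of the same family as Ms4a6b, at 15.9 against 325, at least 2.55-fold lower. The second probe set of Ms4a7 was under the level in both arrays (4.2 and 26.6). Of 8 stromal and endothelial markers with a probe set, 7 were under the level in both arrays. The eighth, Vwf, which megakaryocytes also make, stood at 1368 in the CD45-negative array against 63.9, at least 10.8-fold higher. The summed intensity of the 8 was 1526 against 381.5, and Vwf alone made up most of the 1526. The part of stromal and endothelial cells in the Vcam1 values was not tested.

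As classes, 9 of the 12 measured granule genes and 6 of the 9 macrophage genes were at least 4-fold lower, beside 16.7% of all measured genes. The median difference was -3.58 for the granule genes and -2.59 for the macrophage genes with the detection level. With no detection level the medians were -4.33 and -4.21, so most of the distance between the class medians went with the detection level. Each class held both wide and small gaps, and whether the classes differ was not tested.

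Of the 3 dendritic cell genes, Siglech and Zbtb46 had a probe set, and they lay on opposite sides of 0. Siglech, a receptor of plasmacytoid dendritic cells, stood at 22.8 in the CD45-negative array, under the level, against 530.7 in the CD45-positive array, at least 4.17-fold lower. Its bound was -1.45 after quantile normalization and -1.73 with the level at the 99th percentile, both short of 4-fold. These weaker bounds do not show that the difference itself was under 4-fold. Zbtb46, a transcription factor of conventional dendritic cells that erythroid progenitors and endothelium also carry, was the single measured gene of the 45 that was brighter in the CD45-negative array. It stood at 345 against 120.8, which is under the level, at least 2.71-fold higher. Of its 4 probe sets, 3 were brighter in the CD45-negative array (264.7 against 126.8 and 153.5 against 82.8 for the other two), and the fourth was under the level in both (23 and 59.8). With the mean of the 4 probe sets the CD45-positive value was again under the level, and the difference was at least 0.07. With no level applied, the 4 probe sets ran from -1.38 to 1.51, so the size of the Zbtb46 difference rests on the choice of probe set.

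**Figure D3:**
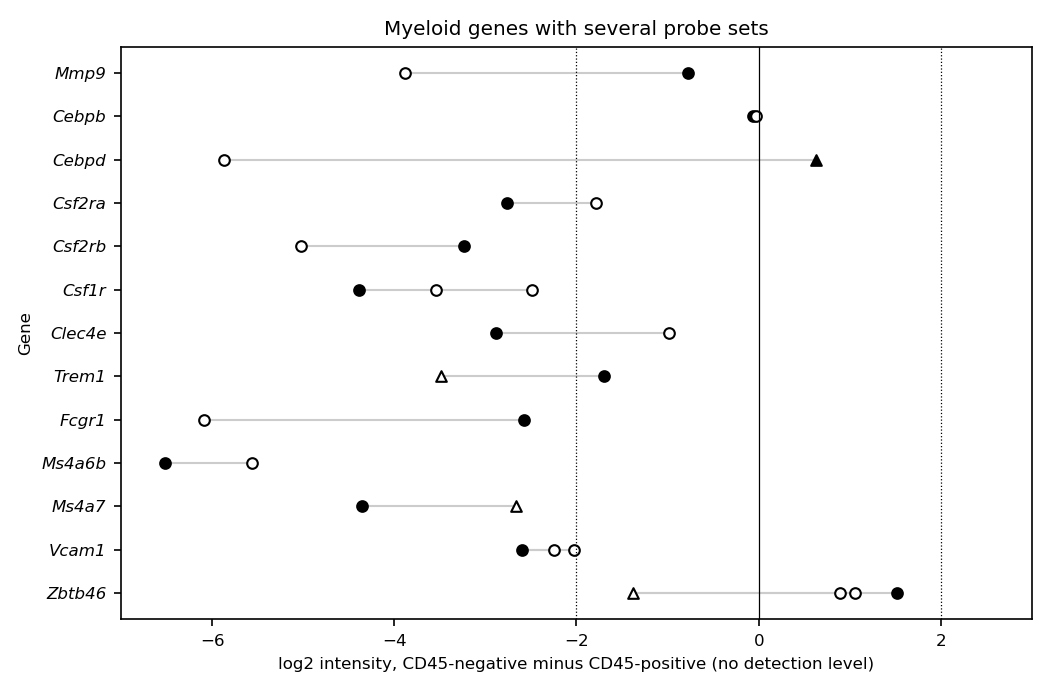
Difference (log2, CD45-negative minus CD45-positive, with no detection level) of every probe set of the 13 myeloid genes that have several; filled symbols are the probe sets that stand for a gene, open symbols the others, triangles those at or under the detection level in both arrays, and dotted lines mark 4-fold. Only Cebpd and Zbtb46 have probe sets on both sides of 0, and in both a triangle is one of them.

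The 13 genes with several probe sets give the single repeated measure within the arrays. With no level applied, the range of the difference between probe sets of 1 gene ran from 0.04 for Cebpb to 6.50 for Cebpd. Over the 3250 genes of the array with at least 2 probe sets above the level in both arrays, the pooled SD between probe sets of a gene was 0.61 on the log2 scale, and over all probe sets of 9010 genes, with no level applied, it was 1.61. This is a spread between probes and not between replicates. Of the 59 probe sets, 54 were dimmer and 5 brighter in the CD45-negative array.

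In the CD45-negative array 23 of the 42 genes lay above the level (54.8%), near the 48.5% of all 18193 genes, and 19 did with the level at the 99th percentile. A share this near that of all genes is not particular to the myeloid genes. For the 22 genes measured in both arrays, the CD45-negative intensity was between 1.09% (Ms4a6b) and 95.7% (Cebpb) of the CD45-positive one. It was under 5% in 10 genes, between 5% and 20% in 7, and 20% or more in 5, namely Elane, Mpo, Mmp9, Cebpb and Mrc1. The later granule genes Chil3, Camp, Ngp, Lcn2 and Ltf lay between 1.29% and 3.89%. Of the 6 macrophage genes, Ms4a6b at 1.09%, Mpeg1 at 2.13% and Lyz2 at 4.59% lay in or near that range, and Vcam1 at 16.6%, Adgre1 at 19.5% and Mrc1 at 33.7% lay above it. The level limits how low this percent can be measured, and more so in dim genes: it equals 31.4% of the CD45-positive intensity of Elane, 23.8% for Mpo, 21.8% for Mmp9, 18.5% for Mrc1, 14.5% for Adgre1 and 6.62% for Vcam1, but 1.46% for Camp and 0.875% for Chil3. A gene as dim as Elane with under 31.4% remaining would have been left out of these 22. The 6 B cell markers measured in both arrays had between 1.42% and 3.23%, with a median of 2.03%, and their list had a summed intensity of 1996 against 98181. For the T and natural killer cell markers, 2 were measured in both arrays, Gzma at 1.09% and Cd3e at 5.48%. These shares are ratios of intensities and not shares of cells.

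**Figure D4:**
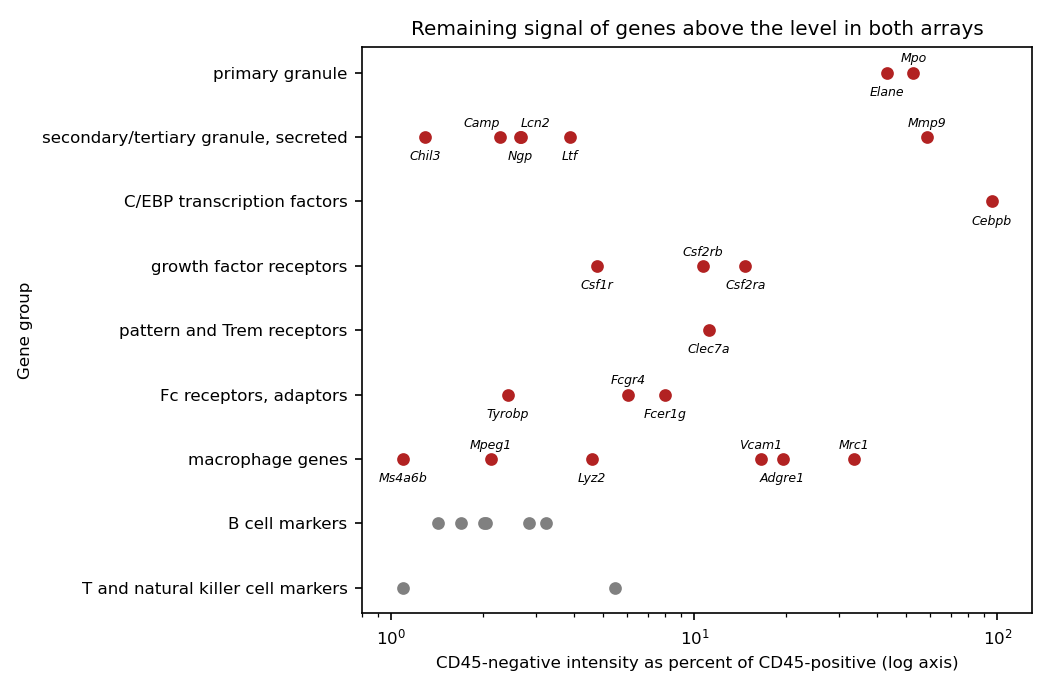
Intensity in the CD45-negative array as percent of that in the CD45-positive array (log axis) for the 22 myeloid genes measured in both arrays (red, named), with B cell and T and natural killer cell markers (grey) for comparison. Most later granule genes lie beside the B cell markers at 1.29% to 3.89%, and Elane, Mpo, Mmp9 and Cebpb lie between 43.3% and 95.7%.

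Further genes listed for these cell types were also mostly lower, beside the 16.7% of all measured genes that were at least 4-fold lower. Of 20 other neutrophil genes with a probe set, among them those of the oxidase that makes superoxide, 17 were measured and 14 were at least 4-fold lower, with 0 higher and a median difference of -3.60. Of 27 other monocyte and macrophage genes, 23 were measured and 14 were at least 4-fold lower, with 0 higher and a median of -2.17. Of 18 other dendritic cell genes, all were measured, 10 were at least 4-fold lower, 0 were higher and 8 were in neither class. Their median was -2.57, and 16 of the 18 were dimmer in the CD45-negative array. For each of these lists, the part of B cells and other white cells in the values was not tested. Where both arrays measured a gene, the median remaining signal was 3.58% over 8 neutrophil genes, 23.0% over 13 monocyte and macrophage genes and 24.6% over 8 dendritic cell genes. The neutrophil genes ran from 1.87% to 9.24%, the monocyte and macrophage genes from 2.92% to 325% and the dendritic cell genes from 2.04% to 133%, so the ranges of the lists overlapped. The 325% is that of Slc40a1 alone (3203 against 984.5), and the part of erythroid cells in its value was not tested. The other monocyte and macrophage genes reached at most 36.9%. The limit that the detection level sets on this percent applies to these medians too.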

How the data were processed

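The deposited table gives each probe set a linear intensity in each array. Labelled cRNA came from total RNA by a 3' expression kit, per the labels' protocols, and the submitters' processing notes name GCRMA and Partek 6.6 without their roles. Means with 2% of values trimmed at each end were 494 and 497, while the distributions differed, so the scaling step is not settled and the ratio between arrays depends on it. The table has no detection calls. Of 45037 probe sets, GEO's platform annotation gave 34945 a single gene symbol, 932 several and 9160 none. Only the first kind was used, and 2 probe sets naming a myeloid gene (Chil3, Csf2rb) beside another gene were left out; signal from close paralogs in the probe sets kept was not tested. Entrez identifiers matched RefSeq (GRCm38.p6) for 34741, with 0 symbols changed.

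Intensities were taken to log2, and no pseudocount was added. A 4-fold difference was counted. With 1 array a group there was no test. Groups were taken from the sample titles. The genes, lists and roles were chosen with earlier results of these data known. All 45 genes were named by rule, and of the other lists those at least 4-fold higher. Mcpt8, Cpa3, Gzma, Cd3e and Slc40a1 were named after their values were seen. Alternatives changed scaling, probe set choice and detection level. The work ran in Python 3.11.15 with pandas 2.3.3, numpy 2.4.6, matplotlib 3.10.9 and scipy 1.17.1, and its steps were tested on simulated data.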

Additional observations from a re-analysis of the deposited data

How the results depend on the processing

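Of the 5 summary results (genes at least 4-fold lower, genes above the level in the CD45-negative array, the medians of the granule and macrophage genes, and other listed genes at least 4-fold lower), none changed direction under the 8 alternatives of scaling, probe set choice and detection level that were run for it, and 2 moved by more than 1.5 times. These were the median of the granule genes (-4.33) and that of the macrophage genes (-4.21), both with no detection level, where values under the level enter as they are. The number of myeloid genes at least 4-fold lower ran from 22 after quantile normalization to 31 with no detection level, around 26. Among 318 values of single genes under an alternative, 286 stayed within 1.5 times, 32 moved further and 0 of those at least 4-fold apart changed sign. In 10 cases, over 5 genes (Ctsg, Clec4e, Adgre1, Siglech and Csf2ra), a gene was no longer called 4-fold lower. In all of these but the Adgre1 case the CD45-negative value was under the level. The value is then a bound, and the true difference may still reach 4-fold. In 5 cases, all with no detection level, a further gene was called (Cebpa, Csf3r, Flt3, Fcgr1 and Ms4a7). The number of genes counted above the level has no value with no detection level. No paired analysis was possible because each group has 1 array. No replicate could be left out for the same reason. Signal over background limits the genes under the level, and the number of arrays limits every value.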
